A study of Mus musculus with 4 samples.

Results

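The 76 genes described here are named for proteins of the mitochondrial ribosome, though the Mrps36 protein has since been placed in another complex. They were taken by name, as every gene whose symbol in the platform annotation is Mrpl or Mrps followed by a digit, out of 18193 genes with a probe set of their own on the array. Where a gene had several probe sets, the one used was chosen by its mean signal over all 4 arrays, the highest being kept, so that the symbol chose the gene and measured signal only the probe set. Of the 78 protein-coding mouse genes with such symbols in RefSeq, only Mrpl30 and Mrpl53 were not among the 76, because their probe sets are shared with another gene.

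RNA came from squamous cell carcinomas of mouse skin induced by a chemical treatment that the labels do not name. Tumour epithelial cells had been sorted alive as Epcam-positive and free of CD45, CD31 and CD140a, and were then parted by a green fluorescent reporter for the transcription factor Sox2. Sox2-GFP-positive cells and Sox2-GFP-negative cells, the control, each filled 2 arrays, and the series text names 2 carcinomas of 2 mice as their source. The labels give no strain, age, sex or reporter allele, and they give both groups the same tumour source and malignant stage. Values are log2 probe set signals, written below with replicate 1 first and replicate 2 second, and differences are positive minus negative.

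The mitochondrial ribosome translates the few messenger RNAs of mitochondrial DNA, all of which encode subunits of the oxidative phosphorylation complexes. Its RNA is made inside the organelle, while all its proteins are encoded in the nucleus, made in the cytosol and imported. The large subunit joins amino acids and passes the new chain into the inner membrane, and the small subunit reads the messenger RNA. Some proteins have a counterpart in the bacterial ribosome and others exist only in mitochondria, and the latter make the particle unusually rich in protein.

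The arrays had median signals of 5.49 to 5.60 over all probe sets. The 10 epithelial and basal keratinocyte markers had a summed signal, as the log2 of the sum of linear values, of 15.32 and 15.52 (positive) against 15.20 and 15.25 (negative). None was at or under the lower quartile of any array, 6 of the 10 lay above and 2 below. Sox2 itself read 3.50 and 3.27 against 3.14 and 3.43, at the floor of the arrays, and so checks no label. Among the genes of the sort markers, Epcam read 10.75 and 11.79 against 11.24 and 11.80, and Ptprc (CD45) 4.98 and 4.34 against 4.97 and 4.18. Pecam1 (CD31) read 5.57 and 6.41 against 8.44 and 6.27, and Pdgfra (CD140a) 5.93 and 4.85 against 7.83 and 5.96. Both of these were highest in negative replicate 1. All 15 of the 15 fibroblast and pericyte markers lay lower in both positive arrays than in both negative arrays. The log2 of their summed signal was 14.20 and 11.22 in the positive and 15.90 and 14.72 in the negative arrays, and 1 and 2 of the 15 were at or under the lower quartile in the positive arrays against 0 in each negative array. For the 10 endothelial markers the sums were 9.37 and 8.73 against 10.93 and 9.27, and for the 9 measured immune markers 9.63 and 8.87 against 11.05 and 9.36, so that the groups overlapped for both. The 6 muscle markers had sums of 8.39 and 8.05 against 7.93 and 7.82, with 4 of the 6 above and none below, and 1 in each positive array and 2 in each negative array were at or under the lower quartile. The log2 signal at the 3′ end of the Gapdh control minus that at its 5′ end, a sign of RNA integrity, was 0.35 and 0.48 in the positive and 0.77 and 0.64 in the negative arrays. The same value for the actin control did not part the groups, at -0.21 and -0.10 against -0.21 and -0.19. The part of these differences in the results below was not tested.

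Signals of mitochondrial ribosomal protein genes lay mostly higher in Sox2-GFP-positive cells, by small amounts. Both positive arrays lay above both negative arrays for 61 of the 76 genes (80.3%), against 35.5% of all genes tested, and for none of the 76 did both lie below, against 14.0% of all genes. The median log2 difference was 0.57, a 1.48-fold higher signal, beside 0.14 over all genes. Since all 76 genes had signals in the upper part of the arrays, from 6.92 to 12.19 on average over the 4 arrays, the same count was taken over the 7718 genes at or above the lowest of them. There 41.0% lay above and 16.9% below, with a median of 0.17. In RNA from sorted populations, a different share of cells with active transcription and a different amount of RNA per cell cannot be told apart.

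No gene of the set passed an adjusted p of 0.05 in limma, which was fitted over all genes, and none of the 18193 did (0.0% higher and 0.0% lower). With the replicate number as a block the count was also 0 of 76, where 0.0715% of all genes were called higher and 0.868% lower. Adjusted p ran from 0.184 to 0.972 over the 76 genes. At an unadjusted p under 0.05 stood 30 of the 76 genes (39.5%), all of them higher in positive cells, beside 9.75% of all genes higher and 5.22% lower. The differences were modest, from -0.23 for Mrpl4 to 1.18 for Mrpl14, with a standard error of 0.18 to 0.35. For no gene of the set did the groups stand 1 log2 unit apart (0.665% of all genes did so upwards), while 19 stood at least 0.5 apart (5.23% of all genes). With 2 arrays against 2, an exact permutation test of a single gene cannot go below p = 0.333. The series text calls the replicates biological, and the precision of every value is limited by their number.

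**Figure D1:**
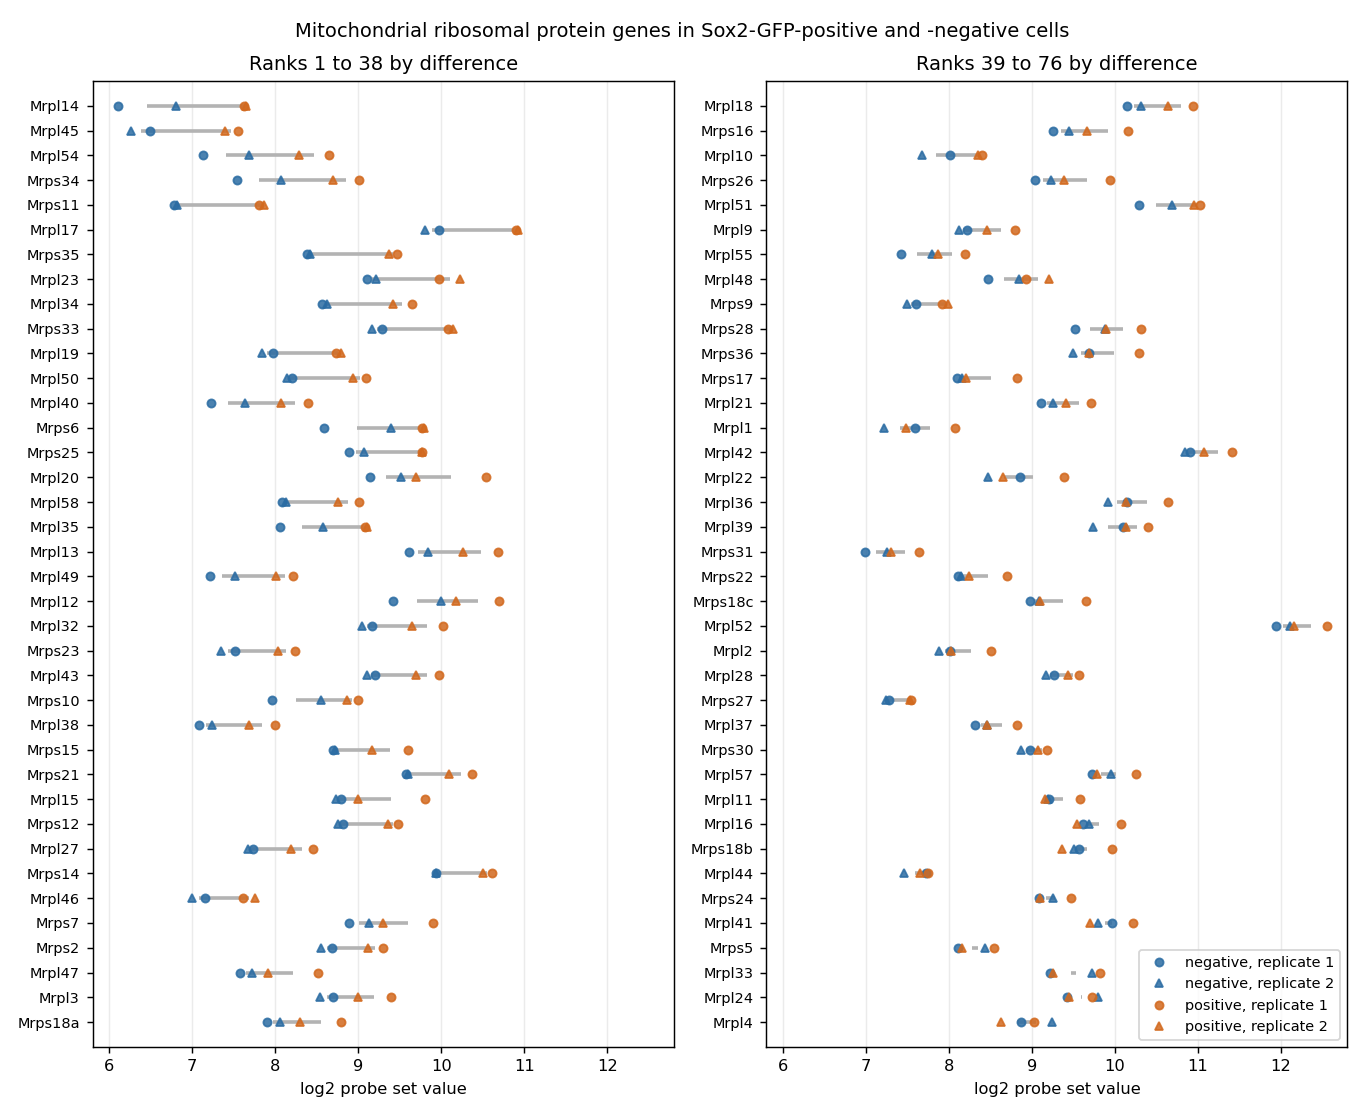
Log2 probe set value (horizontal axis) of each of the 76 mitochondrial ribosomal protein genes (rows, ordered by difference) in the 4 arrays, with circles for replicate 1, triangles for replicate 2, orange for positive, blue for negative, and a grey line between the group means. Orange points lie right of blue points in 61 rows, and the rows where they mix are at the lower right, down to Mrpl4 at -0.23.

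The 12 genes with the widest gap between the groups comprised 8 of the large subunit and 4 of the small subunit. Their folds ran from 1.72 to 2.27 and their adjusted p in limma from 0.184 to 0.236, so they are given as values. Mrps11, the counterpart of a protein of the bacterial small subunit platform, read 7.81 and 7.87 in the positive and 6.77 and 6.82 in the negative arrays, a log2 difference of 1.04 ± 0.18 (SE, n = 2 per group). The gap between its groups, from the lower positive to the higher negative array, was 0.98, the widest of the 76. Mrps35, a small subunit protein found only in mitochondria, read 9.47 and 9.37 against 8.38 and 8.41 (1.02 ± 0.18). Mrps33, another protein of that kind, read 10.09 and 10.14 against 9.28 and 9.17. Mrps25, also without a bacterial counterpart, read 9.77 in each positive array against 8.89 and 9.07. All 4 of these small subunit genes had closer replicates than groups.

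On the large subunit, Mrpl14, whose protein lies at the face that meets the small subunit, had the largest difference of the 76. It read 7.62 and 7.65 in the positive and 6.11 and 6.80 in the negative arrays (1.18 ± 0.29 SE), and the negative arrays differed more between themselves than the positive ones. Mrpl45, which holds the ribosome to the inner membrane at the exit of the new chain, read 7.55 and 7.40 against 6.49 and 6.27 (1.09 ± 0.20). Mrpl23, another protein at the exit, read 9.98 and 10.23 against 9.11 and 9.21. Mrpl17, counterpart of a bacterial large subunit protein, read 10.90 and 10.93 against 9.97 and 9.80, a 2.04-fold difference with positive arrays only hundredths of a log2 unit apart. Mrpl34 and Mrpl19, which also have bacterial counterparts, were 1.91-fold and 1.81-fold higher. Mrpl50, found only in mitochondria, was 1.80-fold higher. Mrpl58, a peptidyl-tRNA hydrolase that frees stalled chains and is also a stable part of the large subunit, read 9.01 and 8.75 against 8.08 and 8.13. In each of these 8 genes every positive array lay above every negative array by 0.63 to 0.93.

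Both subunits held genes that lay above, as 35.5% of all genes tested did. Of the 49 genes whose proteins sit in the large subunit, 37 lay above and 12 overlapped, with a median difference of 0.57. Of the 26 in the small subunit, 23 lay above and 3 overlapped, with a median of 0.59. Mrps30 and Mrps18a, despite their names, were counted with the large subunit, where their proteins are found. Mrps36, whose protein has since been placed in the oxoglutarate dehydrogenase complex, was left out of both, and read 10.28 and 9.69 against 9.69 and 9.50. Genes with a bacterial counterpart (34 of 44 above, median 0.57) and those without (24 of 28 above, median 0.56) are given side by side. All 9 of the small subunit genes without a bacterial counterpart lay above, with a median of 0.70, and so did 13 of the 15 with one, with a median of 0.59. No test was made between these classes.

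Counts by site on the ribosome are set beside the 80.3% of the set and the 35.5% of all genes that lay above. The site lists are short, may leave out proteins of a site, and were not tested. All 6 of the genes listed for the central protuberance, a ridge on the large subunit, lay above. Their differences ran from 0.33 for Mrpl52 to 0.80 for Mrpl40. Mrpl40 read 8.40 and 8.07 against 7.23 and 7.64. Mrpl38, Mrpl46, Mrpl18 and Mrpl48 lay between these values. The stalk, which recruits translation factors, gave mixed values. Mrpl12, its flexible part, read 10.70 and 10.18 against 9.42 and 10.00, while Mrpl10, which anchors it, read 8.40 and 8.35 against 8.01 and 7.68. Mrpl11, at its base, read 9.58 and 9.16 against 9.20 and 9.19, so that 1 positive array lay above and 1 just below the negative arrays, but another of its probe sets gave 9.30 and 8.80 against 7.99 and 8.38. Of the 6 genes listed for the exit of the new chain, Mrpl45, Mrpl23 and Mrpl39 lay above and Mrpl22, Mrpl24 and Mrpl44 overlapped. In the decoding region and messenger RNA channel, Mrps12, counterpart of the bacterial protein that guards reading accuracy, read 9.48 and 9.36 against 8.82 and 8.76. Mrps5 and Mrps24, at the entry of the messenger RNA channel, overlapped, at 8.54 and 8.16 against 8.11 and 8.44, and at 9.47 and 9.09 against 9.09 and 9.26.

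Overlap between the groups was found in 15 genes, with differences from -0.23 to 0.37. In 13 of the 15 positive replicate 1 lay above both negative arrays, and in 5 of the 15 positive replicate 2 lay below both. Mrpl4, a large subunit protein with a bacterial counterpart, read 9.02 and 8.62 in the positive and 8.87 and 9.23 in the negative arrays. Mrpl24 read 9.73 and 9.45 against 9.42 and 9.79. These were the only 2 of the 76 with a difference below 0, and after scaling to the spike-in transcripts added to each RNA both were above 0. Mrpl33 (9.82 and 9.25 against 9.22 and 9.73) had replicates further apart than its groups. The 4 brightest probe sets, those of Mrpl52, Mrpl42, Mrpl51 and Mrpl18, had differences of 0.33 to 0.57. The dimmest, those of Mrpl45, Mrpl14, Mrps31 and Mrps11, had differences of 1.09, 1.18, 0.35 and 1.04. Across the 76 genes mean signal and difference had a Pearson correlation of -0.20 and a Spearman correlation of -0.16, over genes measured on the same 4 arrays.

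Positive replicate 1 had the higher signals of the positive arrays. Over the 76 genes the mean log2 signal was 9.36 in positive replicate 1 and 9.07 in positive replicate 2, against 8.63 and 8.72 in the negative arrays. Positive replicate 1 exceeded positive replicate 2 in 64 of the 76 genes, by a median of 0.32, where the median over all genes was 0.09. The negative arrays differed by a median of -0.05, with replicate 1 higher in 31 genes. Arrays of like number are set side by side here, although the labels do not say that they share a tumour. Between the arrays numbered 1, all 76 genes were higher in positive cells, by a median of 0.72 (all genes 0.19, with 65.5% above 0). Between the arrays numbered 2, 65 of the 76 were higher, by a median of 0.30 (all genes 0.06, with 56.8% above 0). Without positive replicate 1 the median of the set was 0.37 beside 0.08 for all genes, and 61 genes then lay above and 5 below both negative arrays, where 47.0% of all genes lay above and 28.0% below with a lone positive array. Across the set the 2 same-number differences had a Pearson correlation of 0.49, and across all genes it was 0.48. The log2 fibroblast sums were 14.20 and 11.22 in the positive and 15.90 and 14.72 in the negative arrays. Of the positive arrays, replicate 2 had the lower sum and the lower mitochondrial ribosomal mean. Of the negative arrays, replicate 2 had the lower sum and the higher mean. Between the groups, the positive arrays had the lower sums and the higher means. The part of fibroblast content was not tested.

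**Figure D2:**
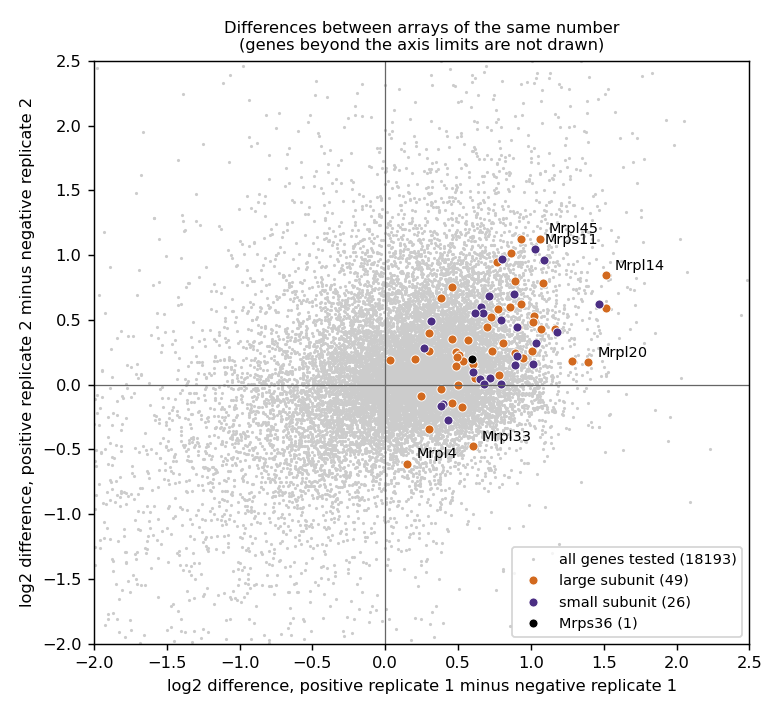
Log2 difference between the arrays numbered 1 (horizontal) and between those numbered 2 (vertical) for all genes tested (grey) and for the mitochondrial ribosomal protein genes of the large subunit (orange), the small subunit (purple) and Mrps36 (black). All 76 coloured points lie right of 0 and 65 lie above 0, and most are further right than up.

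Differences at the other probe sets were smaller on the whole. Of the 76 genes, 42 had more than 1 probe set, which left 80 others. Among the 43 others with a mean signal of at least 6, 36 had a difference above 0 and 31 had both positive arrays above both negative arrays, with a median difference of 0.47. Among the 37 dimmer ones, 23 were above 0, with a median of 0.08. Over all genes tested, 66.0% had a difference above 0. Both positive arrays lay above for 35.5% of all genes and for 41.0% of those at the signal of the set. These shares count 1 chosen probe set per gene. None was taken over all other probe sets of like signal, so the counts here lack a background of their own. Mrpl34 had a dimmer probe set with a larger difference than the one chosen, reading 9.10 and 8.79 against 7.43 and 7.67. In Mrpl19 the probe sets disagreed: that with the highest mean gave 8.73 and 8.79 against 7.97 and 7.84 and another gave 7.99 and 7.79 against 6.67 and 6.96, while a further one gave 7.20 and 7.46 against 8.35 and 8.61. In Mrps9, 3 probe sets gave positive differences of 0.23 to 0.47 and 1 gave -0.75 (6.11 and 6.50 against 7.30 and 6.80). Of the 15 genes whose groups overlapped, 5 had another probe set with a mean signal of at least 6, and for 3 of these such a probe set had both positive arrays above. They were Mrpl11 (differences of 0.86 and 0.31 at its other probe sets of that signal), Mrpl44 (0.78, 0.72 and 0.22) and Mrps5 (0.68, with -0.15 at another), named after their values were seen. The dim probe sets of Mrpl17 and Mrpl54 had differences of -0.24 to -0.02 at mean signals of 4.32 to 4.43, near the lower quartiles of the arrays. With the mean of all probe sets of a gene the median of the set was 0.39, beside 0.13 for all genes. Then 57 of the 76 lay above, beside 35.2% of all genes. Leaving out the 7 genes read by probe sets that can bind other transcripts, 57 of 69 lay above (82.6%), and no share of all genes was taken there.

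**Figure D3:**
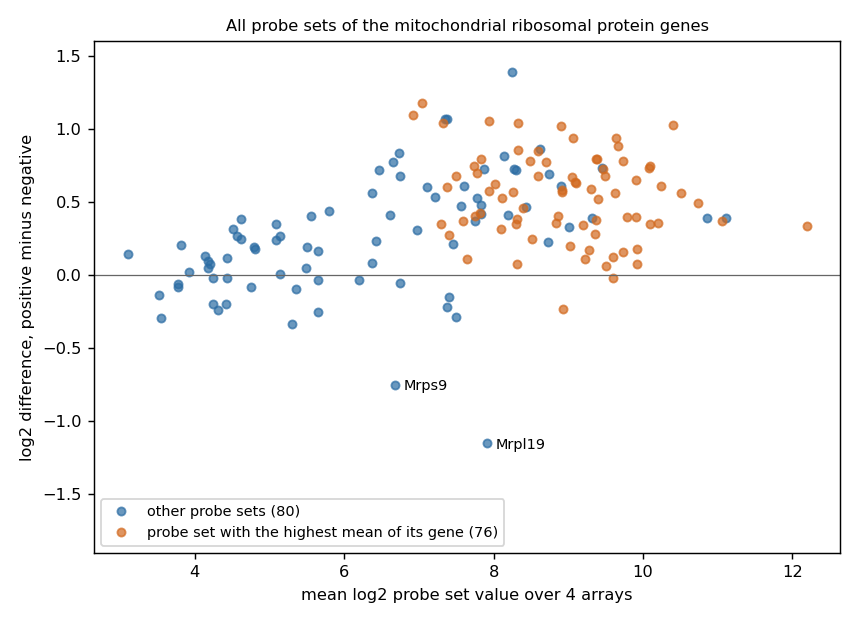
Log2 difference (vertical axis) against the mean log2 signal over the 4 arrays (horizontal axis) for all 156 probe sets of the 76 genes, orange for the probe set with the highest mean of its gene and blue for the other 80. Blue points at signals under 6 scatter around 0, those at 6 and above lie mostly above 0, and the named Mrpl19 and Mrps9 probe sets lie at -1.15 and -0.75.

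The other genes of mitochondrial translation are set against the 35.5% of all genes, or 41.0% of genes at the signal of the set, that lay above. The lists were described by counts and medians, with no test between them and the mitochondrial ribosomal genes. Among the 4 measured ribosomal proteins that bear other names, Gadd45gip1 (large subunit) and Dap3 (small subunit) lay above, at 8.61 and 8.28 against 7.53 and 7.76, and at 9.11 and 9.30 against 8.59 and 8.82. Chchd1 and Ptcd3 of the small subunit overlapped. Of 20 mitochondrial aminoacyl-tRNA synthetases and related enzymes, which charge the transfer RNAs, 8 lay above (40.0%, near these shares) and none below, with a median of 0.24. The widest of them was Qrsl1, part of the enzyme that makes glutaminyl-tRNA, at 6.45 and 7.11 against 5.70 and 5.63. Of 11 translation factors 7 lay above (63.6%) and none below, with a median of 0.36, among them Tufm, the elongation factor that delivers transfer RNA (9.41 and 9.93 against 8.97 and 9.11), and Slirp, a messenger RNA binding protein (10.35 and 9.76 against 9.35 and 9.44). Of 21 assembly factors 11 lay above (52.4%) and 2 below (9.52%), with a median of 0.37. Mtg1, a GTPase of late large subunit assembly, read 6.94 and 7.27 against 6.06 and 6.34, and Mettl17, a methyltransferase-like factor of the small subunit, lay below at 7.37 and 7.36 against 8.30 and 7.61.

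Of 10 genes for transcription and maintenance of mitochondrial DNA 6 lay above (60.0%) and 1 below (10.0%), beside 35.5% and 14.0% of all genes. Tfam, which packages mitochondrial DNA and starts its transcription, read 7.50 and 7.41 against 6.20 and 6.11, a 2.46-fold difference (limma adjusted p = 0.180, n = 2 per group). Tfb2m, the other transcription initiation factor, read 7.47 and 8.28 against 8.46 and 8.39 and lay below, and Polg2, a subunit of the mitochondrial DNA polymerase, overlapped with a difference of -0.88. Of 10 nuclear regulators of mitochondrial gene expression 4 lay above (40.0%, near the share of all genes) and 3 below (30.0%), with a median of -0.01. Nrf1, a factor that binds promoters of many mitochondrial genes, read 8.29 and 8.10 against 8.47 and 8.71. Ppargc1b, a coactivator of mitochondrial biogenesis, read 6.45 and 6.88 against 7.68 and 6.90, and Esrra, a nuclear receptor that works with such coactivators, read 6.90 and 7.23 against 5.84 and 6.88.

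The oxidative phosphorylation subunits and the cytosolic ribosomal proteins had median differences near that of all genes. Their median signals were 10.99 and 12.92, against 9.03 for the mitochondrial ribosomal genes, on arrays with a highest value of 14.36. The differences of these lists were thus not read at like signal. For 83 nuclear genes of oxidative phosphorylation subunits, the complexes that the mitochondrial ribosome serves, the median difference was 0.18, with 34 above (41.0%) and 6 below (7.23%). Ndufb2 of complex I read 9.58 and 9.50 against 8.24 and 8.63. For 47 cytosolic ribosomal protein genes the median was 0.17, with 27 above (57.4%) and 4 below (8.51%). Of all genes 35.5% lay above and 14.0% below, and of genes at the signal of the set 41.0% and 16.9%. The cytosolic share above was thus higher than both, though the median was near the 0.14 of all genes. Rpl39 had the largest difference of the 47 cytosolic genes in either direction, at 7.59 and 7.77 against 8.85 and 10.48. It lay below, with a log2 difference of -1.98 and a gap of 1.07. Rpl14 read 9.59 and 9.01 against 7.99 and 8.45, the largest mean difference upwards of the 47. Rpl7l1 had the widest gap upwards (0.64, beside 0.55 for Rpl14). Among the complexes, Ndufa4l2, a relative of a complex IV subunit, read 11.05 and 11.72 against 9.88 and 9.08, 3.75-fold higher, and Cox4i2, an isoform best known from lung, read 5.62 and 5.10 against 8.24 and 5.93.

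**Figure D4:**
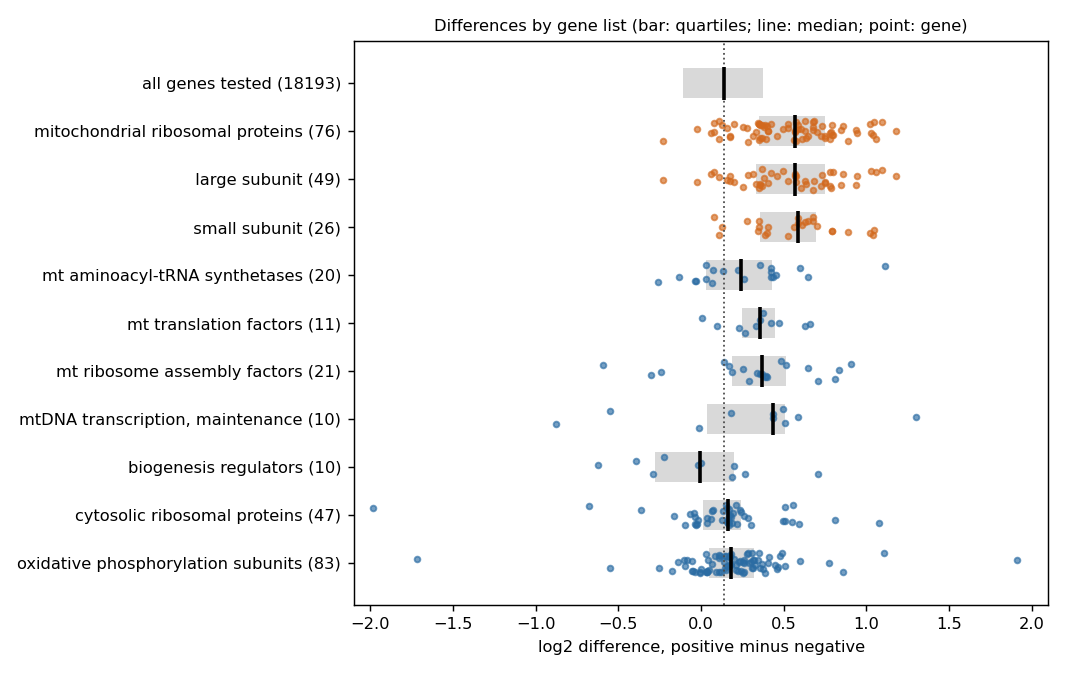
Log2 difference, positive minus negative (horizontal axis), by gene list, with 1 point per gene, a grey bar from the lower to the upper quartile, a black line at the median and a dotted line at the median of all genes (mt, mitochondrial). The mitochondrial ribosomal proteins have a median of 0.57, the cytosolic ribosomal proteins 0.17 and the oxidative phosphorylation subunits 0.18. The lists are not matched for signal.

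Promoters of the set were compared in RefSeq (GRCm38.p6), which held 73 promoter windows for 67 of the 76 genes, each of 300 bases from 250 before to 50 after a transcription start. The windows had a median of 21 CG dinucleotides, against 16 in the windows of the genes tested and 7 in all 32851 windows. Both strands were searched for short motifs. The core of ETS factors such as GABP (CCGGAA) was found in 56.2% of the windows of the set, 21.0% of those of tested genes and 14.9% of all. The NRF1 motif (GCGCA, any base, then GCGC) was found in 16.4%, 7.45% and 4.60%, and the YY1 motif (AAGATGG) in 17.8%, 6.39% and 6.34%. The E-box of MYC and other factors (CACGTG), the CCAAT box (CCAAT), the GC box (GGGCGG) and the TATA box (TATAAA) were in 9.59%, 39.7%, 53.4% and 6.85% of the windows of the set, and in 8.74%, 37.4%, 52.4% and 9.76% of those of tested genes. A match is a run of letters in a window and not a measured binding site, and a GC box can share bases with an ETS match. Within the set, the 38 genes with an ETS match had a median difference of 0.53 and the 29 without 0.57, and the 12 with an NRF1 match had a median of 0.59 beside 0.53 for the 55 without.

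**Figure D5:**
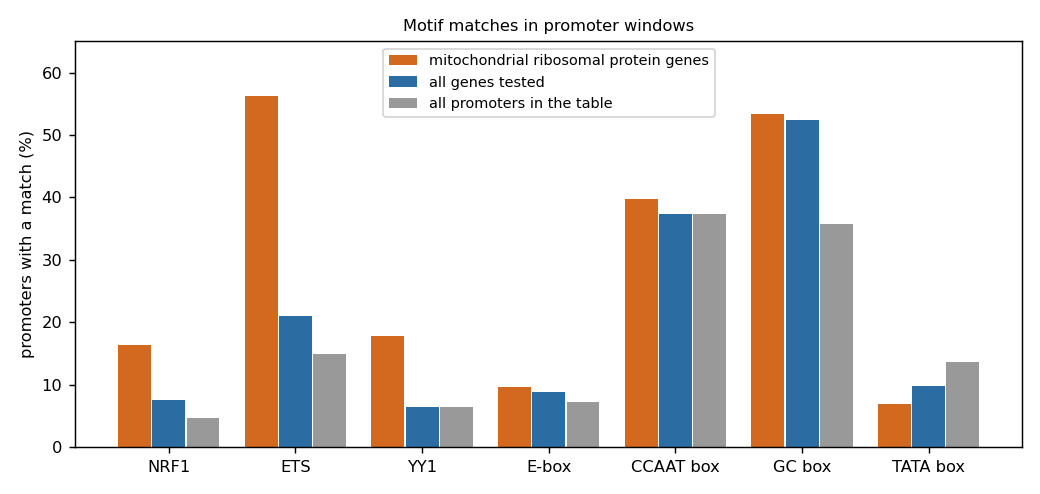
Share of 300-base promoter windows (percent) with at least 1 match to each motif, on either strand, for the mitochondrial ribosomal protein genes (orange), all genes tested (blue) and all windows of the RefSeq table (grey). The ETS bars read 56.2%, 21.0% and 14.9%, and the GC box and CCAAT box bars of the set and of the tested genes are close in height.

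Windows of 6 genes are printed to show these letters beside the expression values: Mrps11, Mrpl17 and Mrpl45, the 3 genes with the widest gap among those with 1 window in the table, then Mrps33, with 2 ETS matches, and Mrps12, whose start faces that of a tRNA synthetase gene, and Mrpl24, the gene with the lowest difference among those with 1 window. Mrps33 and Mrps12 were picked after their values were seen. The windows lie at chr7:78782881-78783180 (plus strand), chr7:105811038-105811337 (minus), chr11:97315466-97315765 (plus), chr6:39810887-39811186 (minus), chr7:28741772-28742071 (minus) and chr3:87919294-87919593 (plus) of GRCm38.p6, and are written 5′ to 3′ in the direction of transcription. Capitals mark matches to the ETS, NRF1, YY1, E-box, CCAAT box and GC box motifs on either strand.
Mrps11: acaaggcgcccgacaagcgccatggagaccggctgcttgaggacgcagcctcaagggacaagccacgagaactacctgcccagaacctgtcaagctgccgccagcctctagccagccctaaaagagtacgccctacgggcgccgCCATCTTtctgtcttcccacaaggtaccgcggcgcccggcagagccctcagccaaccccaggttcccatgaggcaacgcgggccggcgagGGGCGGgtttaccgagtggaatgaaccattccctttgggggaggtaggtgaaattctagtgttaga
Mrpl17: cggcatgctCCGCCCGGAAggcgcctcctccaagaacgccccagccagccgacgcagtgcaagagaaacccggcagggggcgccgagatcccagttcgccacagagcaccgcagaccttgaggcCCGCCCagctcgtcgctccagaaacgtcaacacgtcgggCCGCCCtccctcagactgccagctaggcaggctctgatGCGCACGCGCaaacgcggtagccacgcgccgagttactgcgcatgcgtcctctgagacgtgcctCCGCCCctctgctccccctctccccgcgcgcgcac
Mrpl45: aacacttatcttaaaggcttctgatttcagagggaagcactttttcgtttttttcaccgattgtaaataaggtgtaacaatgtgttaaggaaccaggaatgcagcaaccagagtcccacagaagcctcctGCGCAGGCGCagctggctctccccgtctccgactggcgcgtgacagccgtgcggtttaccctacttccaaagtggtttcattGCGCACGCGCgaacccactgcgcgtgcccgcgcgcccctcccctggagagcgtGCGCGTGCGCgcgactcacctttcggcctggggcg
Mrps33: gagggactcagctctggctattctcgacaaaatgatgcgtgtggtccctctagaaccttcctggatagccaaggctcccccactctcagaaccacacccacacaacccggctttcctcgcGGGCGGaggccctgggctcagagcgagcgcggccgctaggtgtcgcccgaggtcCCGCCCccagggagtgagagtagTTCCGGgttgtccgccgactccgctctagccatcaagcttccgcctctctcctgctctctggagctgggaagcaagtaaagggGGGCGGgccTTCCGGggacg
Mrps12: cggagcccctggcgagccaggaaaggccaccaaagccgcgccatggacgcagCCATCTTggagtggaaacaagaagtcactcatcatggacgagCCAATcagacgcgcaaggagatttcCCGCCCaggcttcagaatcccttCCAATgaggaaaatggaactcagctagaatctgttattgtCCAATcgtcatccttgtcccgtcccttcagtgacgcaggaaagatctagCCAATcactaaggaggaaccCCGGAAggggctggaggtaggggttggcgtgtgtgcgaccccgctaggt
Mrpl24: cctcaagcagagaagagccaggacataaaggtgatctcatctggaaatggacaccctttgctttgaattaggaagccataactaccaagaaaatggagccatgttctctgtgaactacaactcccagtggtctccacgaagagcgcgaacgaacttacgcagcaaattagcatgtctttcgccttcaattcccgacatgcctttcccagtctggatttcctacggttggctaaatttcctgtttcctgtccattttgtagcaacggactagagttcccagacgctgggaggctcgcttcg

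Mrpl45 carried 3 NRF1 matches and no other, Mrpl17 held 1 NRF1 match, 1 ETS match that shares bases with a GC box, and 4 GC boxes, and Mrps12 held 1 ETS match, 1 YY1 match, 4 CCAAT boxes and 1 GC box. Mrps11 had 1 YY1 match and 1 GC box, Mrps33 had 2 ETS matches and 3 GC boxes, and Mrpl24 had no match to any of these motifs.

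Many genes of the set start back to back with another gene. A start on the opposite strand lay within 1000 bases upstream for 25 of the 67 genes (37.3%), against 16.2% of tested genes and 12.2% of all genes with a window. In 1 case both partners belong to the set: the starts of Mrps11 and Mrpl46 lie 42 bases apart, and Mrpl46, a protein of the central protuberance, read 7.61 and 7.75 against 7.16 and 7.00, so both lay above. Of the 23 partners outside the set, all measured, 10 lay above (43.5%, beside 35.5% of all genes) and 2 below, with a median difference of 0.20. Sars2, the mitochondrial seryl-tRNA synthetase whose start lies 147 bases from that of Mrps12, read 7.78 and 7.91 against 7.41 and 7.44. Tmem63b, an ion channel gene 131 bases from Mrpl14, read 8.01 and 7.82 against 7.10 and 7.23, and Psma2, a proteasome subunit gene 205 bases from Mrpl32, read 11.24 and 10.78 against 10.36 and 10.53. Twnk, the helicase of mitochondrial DNA, whose start lies 116 bases from that of Mrpl43, overlapped at 7.41 and 7.24 against 7.41 and 7.26, while Mrpl43 read 9.97 and 9.69 against 9.20 and 9.11. These pairs were named after their values were seen. Genes of the set with a back-to-back start had a median difference of 0.57 and the other 42 had 0.49.

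The scaling of the arrays set the absolute size of these differences. The 24 poly-A spike-in probe sets had lower signals in positive than in negative arrays, with means of 9.63 and 9.55 against 10.26 and 10.51. Scaling to them added 0.79 to every log2 difference, put 76 of the 76 genes above (84.8% of all genes) and brought 75 of the 76 past the limma threshold, where 69.0% of all genes passed upwards too. Relative to the median of all genes the median of the set was 0.43. That scaling could not change this value, since it adds the same amount to every gene. After quantile normalization the value was 0.34, and 50 of the 76 genes lay above (35.2% of all genes) and none below.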

How the data were processed

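The authors deposited log2 probe set values for 45101 probe sets on 4 Affymetrix mouse whole-genome arrays, 1 per sample, made from total RNA with bacterial spike-in transcripts, per the labels' protocols. R 2.14.0 is named in the submitters' processing notes. The log2 scale was read from the values (2.73 to 14.36), and how background was corrected and probes were normalized and summarised is not given in the sources used here. No detection calls were used.

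Groups and replicate numbers come from the sample titles. The tests left out 64 control probe sets, and the 34945 probe sets with 1 gene symbol in the platform annotation gave 18193 genes. All 76 members matched RefSeq by gene number. The test was limma (3.58.1, R 4.3.3), lmFit and eBayes with group as the only term, Benjamini-Hochberg adjustment over all genes and a threshold of 0.05, and it was tested on simulated data. The members and gene lists were chosen with earlier results of these data known. Genes named were the 12 members with the widest gap between groups, any with both positive arrays below, the 4 brightest, the 4 dimmest, the 4 whose probe sets differ most and up to 3 genes per companion list. Members named by site, overlap or neighbouring start were added after the values were seen. Alternatives were the replicate number as a block, quantile, median and spike-in scaling, no dim genes, the mean of probe sets, a trended prior and leaving out each array. Spike-in scaling without the 3 trp probe sets, which lie at the floor, the block with quantile normalization, and leaving out probe sets that can bind other transcripts were added after seeing the data.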

Additional observations from a re-analysis of the deposited data

How the results depend on the processing

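The count of members past the threshold was 0 as deposited, 71 with spike-in scaling on all poly-A probe sets and 75 without the trp ones (57.1% and 69.0% of all genes passed upwards), and 0 under every other alternative, leave-one-out fits included, where the lone array is assumed to vary like the other group. The median difference of 0.57 became 1.25 and 1.36 with these scalings, 0.39 with the mean of probe sets, and 0.37 to 0.70 leaving out 1 array. The count above, 61 (beside 35.5% of all genes), was 50 to 76 over the scalings (beside 35.2% to 84.8% of all genes). It was 57 with the mean of probe sets (beside 35.2%). It was 61 to 74 leaving out 1 array, where a lone array puts 46.5% to 55.2% of all genes above. The count below was 0, and 0 to 5 leaving out 1 array (2 without negative replicate 1, 5 without positive replicate 1), beside 23.4% to 28.0% of all genes. None of the 19 members named by the rule changed direction under the alternatives run. Each of them had both positive arrays above both negative arrays as deposited. Leaving out an array, the block, the trended prior, no dim genes, median scaling and spike-in scaling could therefore not reverse them. Only quantile normalization and the mean of probe sets could have done so. None of these alternatives read a gene by another of its probe sets alone. Of the other probe sets of Mrpl19 and of Mrps9, 1 each gave -1.15 and -0.75, and the rest were above 0. The count of all 76 with a difference above 0, 74, ran from 65 (without positive replicate 1) to 76. Both groups carry replicate numbers 1 and 2, but the labels do not say that a number marks a tumour. The differences between replicates 1 and 2 in the positive and in the negative arrays had a correlation of 0.16 over all genes and 0.03 over the members. With the replicate number as a block, 0 members passed (lowest adjusted p = 0.119 in limma), as without it, 30 were at an unadjusted p under 0.05, and the median stayed at 0.57 with 61 above and 0 below. Over all genes the block called 13 higher and 158 lower, against 0 and 0. With 2 arrays per group and no detection calls, the number of arrays limits every value.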
